A study of Mus musculus with 9 samples.

Results

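The 7 genes described here, Tmem45a, Wfdc3, D17H6S56E-5, Adgrf1, Calml4, B4galt6 and Ccdc34, belong to no single pathway, and most have been little studied in liver. They were chosen by their high expression in mouse liver tumours on these same arrays, so their difference between tumour and control liver is a description and carries no test. They are 7 of 19938 genes measured on a probe set with 1 gene symbol, and 8 of 21789 such probe sets, since Wfdc3 had a pair of them. The 5 tumour samples were hepatocellular carcinomas (HCC) of bitransgenic AFP-Cre/Rosa26-lsl-NICD mice, and the 4 control samples were healthy livers of monotransgenic Rosa26-lsl-NICD mice, which carry the same silent allele without Cre. Cre under the alpha-fetoprotein promoter, active in liver progenitors and hepatoblasts, removes the stop cassette in front of NICD, the intracellular part of Notch1. All mice were 6 to 12 months old on a hybrid 129 x C57BL/6 background, and neither sex nor the animal behind each array was given in the sources used here. Total RNA was hybridised to Affymetrix Mouse Gene 1.0 ST arrays, 1 array per sample. Values are RMA intensities on the log2 scale, where a step of 1 is a doubling of signal. RMA is a background correction, normalisation and summary of the probes of a probe set. Levels of different probe sets are not on a common scale, so only differences are set side by side between genes.

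NICD enters the nucleus and, with the DNA-binding protein Rbpj, turns on Notch target genes, which in liver favour the biliary and progenitor fate. Among the 7 genes, Tmem45a encodes a multi-pass membrane protein known from human epidermal keratinocytes and from hypoxic human tumour cells. Wfdc3 encodes a small secreted protein of the whey acidic protein family, whose 4-disulfide core is shared with protease inhibitors. Adgrf1, also called Gpr110, is an adhesion G protein-coupled receptor, and in mouse neurons it responds to a docosahexaenoic acid derivative. Calml4 is a calmodulin-like protein that takes part in the links between microvilli of the intestinal brush border. B4galt6 is, with B4galt5, a lactosylceramide synthase, which makes the core of gangliosides. Ccdc34 is a coiled-coil protein needed for the sperm flagellum in human and mouse. D17H6S56E-5, with the synonym G7e, is listed in the gene table as protein coding, and no role is given for it here.

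RefSeq promoter windows on GRCm38.p6 were found for 6 of the 7 genes, and 3 of them are shown because they belong to the genes with the largest difference. Each is the 250 bases before the annotated start, 5′ to 3′ on the strand of the gene. The Tmem45a window lies at chr16:56886164-56886413 on the minus strand, with a CCAAT box in capitals. The Wfdc3 window lies at chr2:164743268-164743517 on the minus strand, with the Rbpj core motif TGGGAA, found on the opposite strand, in capitals. The D17H6S56E-5 window lies at chr17:35000747-35000996 on the minus strand, with the E2F motif TTTNNCGC, found on the opposite strand, in capitals.
Tmem45a: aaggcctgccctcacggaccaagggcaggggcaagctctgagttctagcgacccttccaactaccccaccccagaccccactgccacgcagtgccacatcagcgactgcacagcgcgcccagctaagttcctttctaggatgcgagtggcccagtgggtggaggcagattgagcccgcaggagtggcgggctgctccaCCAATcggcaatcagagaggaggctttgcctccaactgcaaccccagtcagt
Wfdc3: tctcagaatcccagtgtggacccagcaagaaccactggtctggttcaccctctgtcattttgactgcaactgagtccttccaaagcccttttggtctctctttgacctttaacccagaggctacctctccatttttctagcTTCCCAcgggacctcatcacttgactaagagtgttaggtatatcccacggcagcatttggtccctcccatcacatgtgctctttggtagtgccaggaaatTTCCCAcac
D17H6S56E-5: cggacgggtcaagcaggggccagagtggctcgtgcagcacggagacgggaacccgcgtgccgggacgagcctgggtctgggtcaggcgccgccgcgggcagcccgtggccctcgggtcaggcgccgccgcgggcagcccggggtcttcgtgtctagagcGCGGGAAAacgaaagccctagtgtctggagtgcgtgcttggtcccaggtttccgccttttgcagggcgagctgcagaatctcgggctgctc
The G and C content of these windows was 62.4% for Tmem45a, 49.6% for Wfdc3 and 70.4% for D17H6S56E-5, with a median of 52.4% over all 32851 windows. On either strand, TGGGAA was present in the Wfdc3 window alone among the 6, starting at -109 and -9 relative to the annotated start, and 21.6% of all windows held it. TTTNNCGC was present in the D17H6S56E-5 window alone, against 4.28% of all windows. CCAAT was present for Tmem45a and Ccdc34, against 33.8% of all windows, and GGGCGG, the letters of the SP1 motif, for Adgrf1, Calml4 and Ccdc34, against 32.7%. GGAATG, the letters of the TEAD motif, was present for Ccdc34 alone (12.6% of all windows), and TGANTCA, those of AP-1, for none of the 6 (6.75%). These searches were chosen after the expression values were seen, no matches overlap in the windows printed, the GGAATG and GGGCGG matches of Ccdc34 share their bordering base, and a match describes letters, not binding.

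Tmem45a had the largest difference of the 7 and the tightest control values. It measured 11.08, 9.19, 9.81, 10.15 and 9.19 on HCC arrays 1 to 5, against 6.05, 6.19, 6.35 and 6.32 on control arrays 1 to 4. The lowest tumour stood 2.84 above the highest control liver, the widest gap among the members. The mean was 9.88 ± 0.78 in HCC (SD, n = 5) and 6.23 ± 0.14 in control liver (SD, n = 4), a log2 difference of 3.66 or 12.6-fold. The same statistics, mean ± SD with these numbers of arrays, are used below.

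Wfdc3 was nearly as far apart, but with a wide spread among the tumours. Its main probe set measured 11.20, 10.85, 9.26, 10.86 and 7.93 on HCC arrays 1 to 5, against 6.20, 6.35, 6.50 and 6.52 on control arrays 1 to 4. HCC arrays 1, 2 and 4 were high, HCC array 5 was low and the groups did not overlap. The means were 10.02 ± 1.39 in HCC and 6.39 ± 0.15 in control liver, a log2 difference of 3.63 or 12.4-fold. The second Wfdc3 probe set, which the platform annotation does not tie to the curated RefSeq transcript, showed no such separation. It measured 6.72 ± 0.09 in HCC and 6.77 ± 0.13 in control liver, with all 9 arrays between 6.57 and 6.95.

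D17H6S56E-5, which lies between Lsm2 and Vars among the measured genes, measured 9.82, 11.43, 9.03, 10.27 and 7.77 on HCC arrays 1 to 5, against 6.45, 6.71, 6.19 and 6.08 on control arrays 1 to 4. HCC array 2 was the highest and HCC array 5 the lowest, and the lowest tumour was 1.06 above the highest control. The means were 9.67 ± 1.37 in HCC and 6.36 ± 0.28 in control liver, a log2 difference of 3.31 or 9.89-fold.

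Adgrf1 was the receptor of the set, and its groups overlapped. It measured 9.32, 8.24, 9.06, 8.32 and 7.31 on HCC arrays 1 to 5, against 6.21, 5.53, 5.69 and 7.63 on control arrays 1 to 4. Control array 4 was above HCC array 5, and it was the only control with a low level of Xist, a transcript of the inactive X chromosome. The means were 8.45 ± 0.79 in HCC and 6.27 ± 0.96 in control liver, a log2 difference of 2.18 or 4.54-fold. Among the arrays with high Xist, HCC arrays 1 and 2 and control arrays 1 to 3, the difference was 2.97, whereas among those with low Xist, HCC arrays 3 to 5 and control array 4, it was 0.59. The low Xist comparison has 1 control array and so no spread of its own, and the part of Xist status in the Adgrf1 values was not tested.

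Calml4, the calmodulin-like member, also overlapped between the groups. It measured 9.57, 11.19, 9.40, 9.53 and 7.42 on HCC arrays 1 to 5, against 6.97, 8.34, 7.98 and 7.49 on control arrays 1 to 4. HCC array 5 lay within the control range, and the other 4 tumours were above every control liver. The means were 9.42 ± 1.34 in HCC and 7.69 ± 0.60 in control liver, a log2 difference of 1.73 or 3.31-fold, the smallest of the 7.

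B4galt6, the lactosylceramide synthase, measured 9.06, 7.72, 6.59, 8.20 and 6.58 on HCC arrays 1 to 5, against 5.46, 5.65, 6.35 and 5.66 on control arrays 1 to 4. HCC arrays 3 and 5 stood little above control array 3, by 0.23 for the closer of them, so the separation of the groups was narrow. The means were 7.63 ± 1.07 in HCC and 5.78 ± 0.39 in control liver, a log2 difference of 1.85 or 3.61-fold.

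Ccdc34, the coiled-coil protein of the flagellum, measured 9.31, 8.52, 7.93, 8.25 and 7.75 on HCC arrays 1 to 5, against 5.91, 6.85, 6.16 and 6.60 on control arrays 1 to 4. All tumours were above all control livers, with a gap of 0.90, and HCC array 1 was the highest. The means were 8.35 ± 0.61 in HCC and 6.38 ± 0.42 in control liver, a log2 difference of 1.97 or 3.91-fold.

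**Figure D1:**
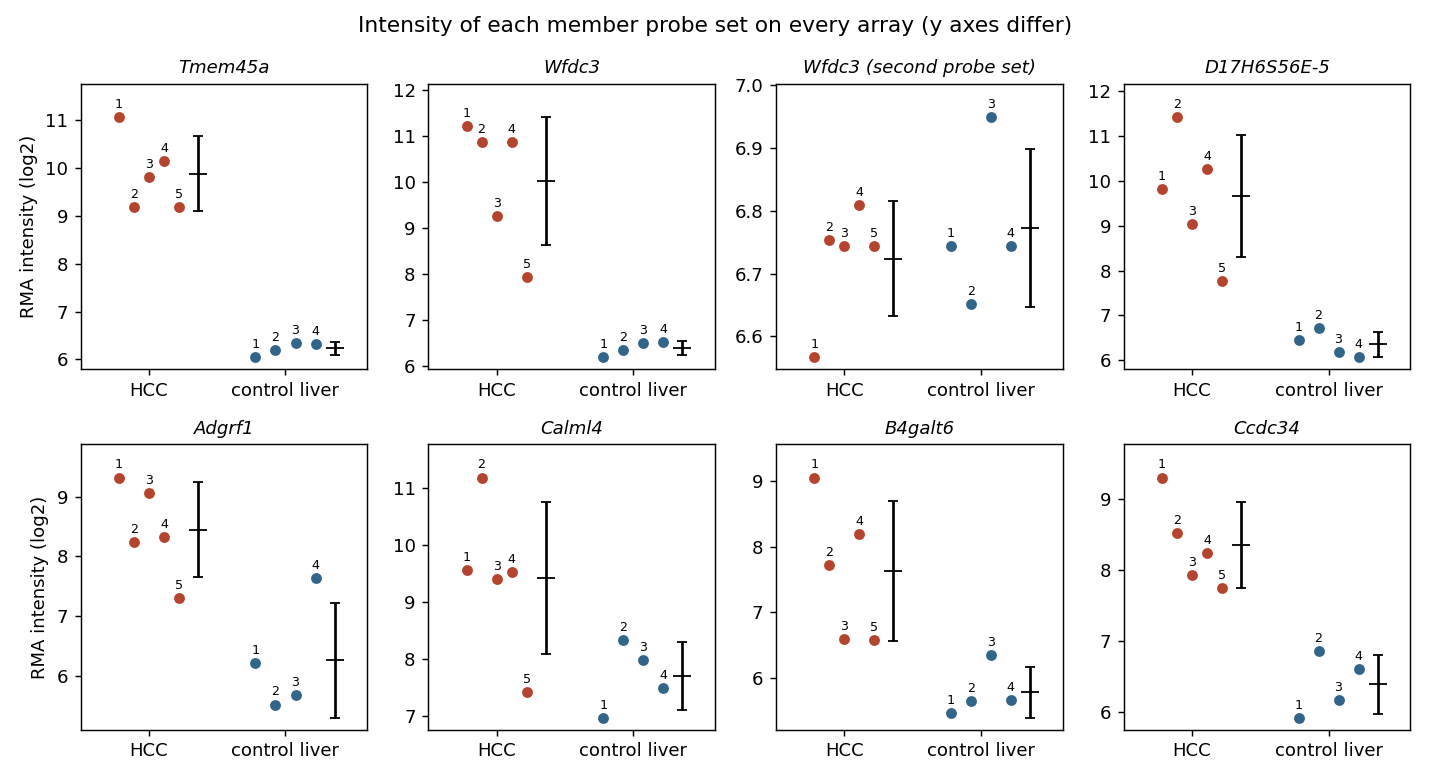
Each panel shows 1 probe set of a member, with RMA intensity (log2) on the y axis, HCC arrays 1 to 5 on the left, control arrays 1 to 4 on the right (numbers beside the points), and the group mean ± SD as a bar. Tmem45a has the widest gap between the groups, Adgrf1 and Calml4 overlap, and the second Wfdc3 probe set stays between 6.57 and 6.95 on all arrays.

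Counted together, 5 of the 7 members had all tumours above all control livers, which was so for 5.63% of all genes, and Adgrf1 and Calml4 did not. A mean log2 difference of at least 2 was seen for 4 of the 7, Tmem45a, Wfdc3, D17H6S56E-5 and Adgrf1, against 0.286% of all genes. These counts follow from the choice of the genes and are given only to describe them. In HCC array 5, the smallest excess over the control mean was -0.27 for Calml4, followed by 0.80 for B4galt6 and 1.04 for Adgrf1, and the largest was 2.96 for Tmem45a. The median log2 difference was 2.18 over the 7 members and -0.033 over all genes.

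The members did not peak in the same tumours. HCC array 1 was the highest tumour for 5 of them, Tmem45a, Wfdc3, Adgrf1, B4galt6 and Ccdc34, whereas HCC array 2 was the highest for D17H6S56E-5 and Calml4. HCC array 5 was the lowest tumour for 6, the exception being Tmem45a, whose values on HCC arrays 2 and 5 were 9.186 and 9.193. Averaged over the 7 members, the excess over the control mean was 3.46, 3.15, 2.28, 2.92 and 1.27 on HCC arrays 1 to 5. HCC array 1 was the highest tumour for 24.5% of all genes and HCC array 5 the lowest for 20.0%. Among the 389 genes, 1.95% of all, with a mean log2 difference of at least 1, these shares were 57.3% and 52.7%. The SD was larger in HCC than in control liver for 6 of the 7 members, all but Adgrf1, against 67.9% of all genes and 91.3% of those 389.

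Cell type markers moved with some of the members, and their part in the members' values was not tested. A marker list is summarised below by the mean, over its genes, of log2 intensity minus the mean of the control livers. In bulk tissue, fewer cells of a type and less RNA per cell cannot be told apart. The 7 measured proliferation markers, among them Mki67 and Top2a, were at 2.60, 1.37, 0.89, 2.10 and 0.68 on HCC arrays 1 to 5, against -0.065 to 0.062 in control livers. The excess over the control mean had the same order of tumours for B4galt6, at 3.28, 1.94, 0.81, 2.42 and 0.80. It did for Wfdc3 too, at 4.81, 4.462, 2.87, 4.466 and 1.54, where HCC arrays 4 and 2 were nearly equal. The 10 measured cholangiocyte markers were at 1.48, 1.28, 0.42, 0.52 and 0.75 on HCC arrays 1 to 5, against -0.044 to 0.057 in control livers, and 1 of them (Sox9) passed the test described below, as did Top2a among the proliferation markers. At an unadjusted p below 0.05 in limma, 4 of the 10 cholangiocyte markers and all 7 proliferation markers were higher. None of either list was lower, and 10.5% of all genes were higher and 9.85% lower. Of the 10 cholangiocyte markers, 8 had a higher mean in HCC, as did 42.5% of all genes, and Aqp1 and Onecut1 had a lower one. The value of HCC array 1 leaned on Cftr, at 10.85 there against 5.57 to 6.82 on the other tumours and a control mean of 4.95. All 12 hepatocyte markers, albumin among them, had a lower mean in HCC, none past that test. At an unadjusted p below 0.05 in limma, 0 of the 12 were higher and 3 lower, against 10.5% and 9.85% of all genes. Their list values were -0.90, -0.35, -0.37, -0.63 and -0.016 on HCC arrays 1 to 5, against -0.063 to 0.048 in control livers. HCC array 5 thus lay within the control range of this list.

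The 8 macrophage and Kupffer cell markers were on average low in most tumours but not in HCC array 2. Their list values were -1.62, 0.63, -0.84, -0.85 and -0.88 on HCC arrays 1 to 5, against -0.51, 0.47, 0.22 and -0.18 on control arrays 1 to 4, and 1 of them (Cd163) passed that test, lower in HCC. The value of HCC array 1 leaned on Vsig4 of this list, at 5.14 there against 9.28 to 11.90 on the other tumours and a control mean of 10.92. Of the 8 markers, 7 had a lower mean in HCC. The other, Cd68, had a higher one, at 9.01 ± 0.63 in HCC and 8.73 ± 0.48 in control liver. Calml4 was highest on the same arrays as this list in both groups, HCC array 2 and control array 2, but on HCC arrays 1, 3 and 4 it exceeded its control mean by 1.87, 1.70 and 1.83 while the list was below its own. The 7 lymphocyte markers ranged from -0.24 to 0.18 in HCC and from -0.056 to 0.035 in control livers. Ms4a1 of that list had a low signal with identical values on all control livers. For such a marker, an unchanged gene and an undetected one cannot be told apart. Endothelial markers were at -1.15 to 0.15 in HCC, against -0.12 to 0.13 in control livers, and stellate cell and fibroblast markers were at -0.33 to 0.15 in HCC, against -0.082 to 0.080 in control livers. Genes of the stellate and fibroblast list went both ways, 5 with a higher and 3 with a lower mean in HCC. The log2 difference was 1.09 for Acta2 and -1.19 for Lrat. At an unadjusted p below 0.05 in limma, 3 of the 8 were higher and 1 lower, against 10.5% and 9.85% of all genes.

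**Figure D2:**
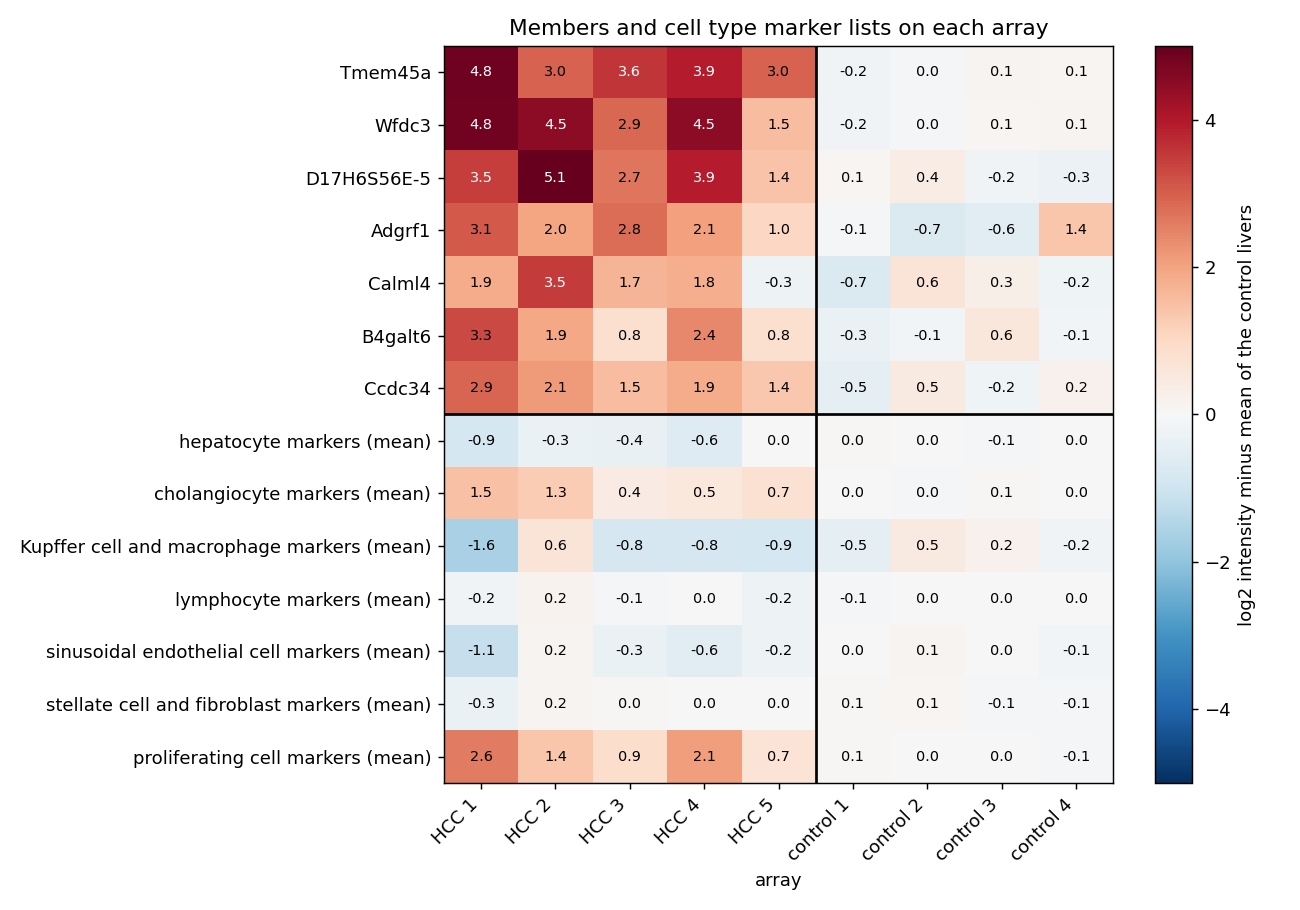
Colour and number give log2 intensity minus the mean of the control livers, for each member (upper rows) and for the mean of each cell type marker list (lower rows), with HCC arrays on the left and control arrays on the right. HCC array 5 has the lowest excess for 6 of the 7 members, and the proliferation markers are highest on HCC array 1 at 2.60 and HCC array 4 at 2.10.

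The genes with the most similar profiles were found by the root mean square difference between profiles over the 9 arrays, each profile centred on its own mean. This measure contains the difference between the groups by which the members were chosen, so it describes likeness and nothing more. It is not divided by a member's own spread over the 9 arrays, which was 1.18 for B4galt6 and 1.89 for Tmem45a. Rankings between members below hold for this unscaled measure only. The closest match of any member was Prc1, a protein of the central spindle in dividing cells, to B4galt6, with a difference of 0.20 on the log2 scale per array. Prc1 measured 8.61, 6.99, 6.24, 8.03 and 6.24 on HCC arrays 1 to 5, against 5.45, 5.26, 5.82 and 5.13 on control arrays 1 to 4, which followed B4galt6 array by array among the tumours. Ndc80, a kinetochore protein (0.23), and Sgo2a, a protector of centromeric cohesion (0.25), came next. The nearest gene to Ccdc34 was Tacc3, a spindle protein (0.28), followed by Slc25a4, the ADP/ATP carrier of mitochondria (0.31), and Gdpd1 (0.32).

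Tmem45a was nearest to Scd2, a stearoyl-CoA desaturase (0.28), then to the centromere protein Cenph (0.40) and the RNA-binding protein Bicc1 (0.43). Scd2 measured 10.49, 8.84, 9.22, 10.04 and 8.93 on HCC arrays 1 to 5, against 6.24, 6.30, 6.48 and 6.19 on control arrays 1 to 4. Both genes had HCC arrays 1 and 4 as the highest tumours and HCC arrays 2 and 5 as the lowest. Wfdc3 and D17H6S56E-5 were each other's nearest genes (0.55), with HCC arrays 1, 2 and 4 high and HCC array 5 lowest in both. Among the 21 pairs of members only B4galt6 and Ccdc34 were closer (0.52), and Tmem45a and Calml4 were the farthest apart (1.42). Wfdc3 was next nearest to Bicc1 (0.59) and Trim59 (0.63), and D17H6S56E-5 to Cpe, the prohormone-processing carboxypeptidase E (0.60), and the tetraspanin Tspan8 (0.66).

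Calml4 was nearest to Tlr1, a receptor for bacterial lipopeptides on myeloid cells (0.436), to the tetraspanin Cd9 (0.444) and to Cybb, the catalytic subunit of the phagocyte NADPH oxidase (0.444). Cybb measured 10.34, 12.43, 9.93, 10.12 and 8.99 on HCC arrays 1 to 5, against 8.52, 9.99, 9.66 and 9.01 on control arrays 1 to 4. HCC array 2 was thus the highest for Calml4, Tlr1, Cd9 and Cybb, and HCC array 5 the lowest tumour for all 4. The nearest genes to Adgrf1 were Gramd1b, a carrier of cholesterol between membranes (0.556), Carmil1, a regulator of actin capping (0.558), and the noncoding RNA Meg3 (0.59). Gramd1b and Carmil1 shared with Adgrf1 a highest control value on control array 4, at 6.56 against 6.00 to 6.06 for Gramd1b and at 8.09 against 7.03 to 7.25 for Carmil1.

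**Figure D3:**
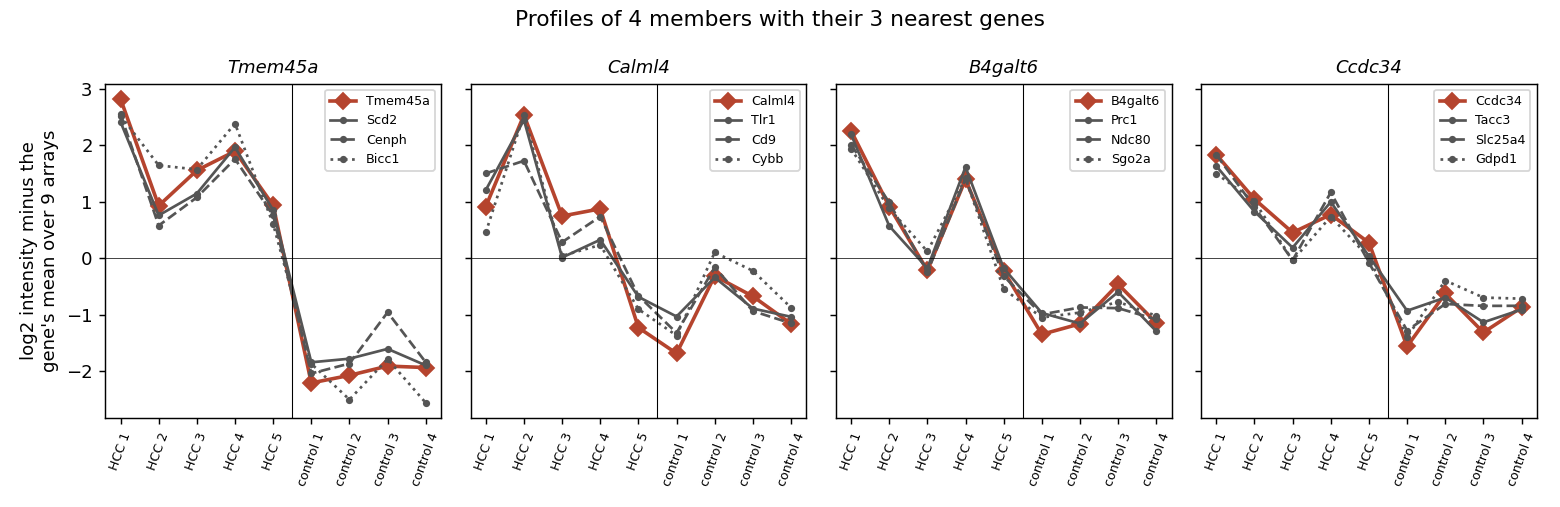
Log2 intensity minus the gene's own mean over 9 arrays is plotted for 4 members (diamonds) and their 3 nearest genes (dots), with HCC arrays left of the vertical line and control arrays right of it; lines only join the points of 1 gene. B4galt6 and Prc1 differ by 0.20 on the log2 scale per array, and Calml4 shares its peak on HCC array 2 with Tlr1, Cd9 and Cybb.

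The families and complexes of the members were tested without the members themselves, with limma over all 19938 genes and Benjamini-Hochberg adjustment at an adjusted p of 0.05. In that fit 171 genes, 0.858% of all, were higher and 32, 0.16%, were lower in HCC. At an unadjusted p below 0.05, the threshold of the counts in brackets below, 10.5% of all genes were higher and 9.85% lower, and 42.5% of all genes had a higher mean in HCC. Of 124 measured genes in the 8 lists, 3 rose and none fell (19, or 15.3%, were higher and 9, or 7.26%, lower at an unadjusted p below 0.05). Their median log2 difference was -0.0086, against -0.033 over all genes. These counts turned on single arrays: without HCC array 5 there were 631 higher and 556 lower calls, and without control array 3 there were 10 and 0 (1484 lower at an unadjusted p below 0.05). No gene of the lists passed without HCC array 4 or any 1 control array (23 to 27 at an unadjusted p below 0.05).

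Wfdc2, the epididymal and airway relative of Wfdc3 known as HE4 in human ovarian cancer, was the largest rise among these genes. It measured 9.24, 10.87, 9.35, 10.41 and 8.998 on HCC arrays 1 to 5, against 7.91, 7.75, 7.95 and 7.32 on control arrays 1 to 4, and the groups did not overlap. The log2 change was 2.04 (SE 0.38), or 4.11-fold, with an adjusted p of 0.0493 in limma. It passed without HCC array 5 and lost the call without any other single array, at an adjusted p of 0.0588, 0.0586, 0.0829 and 0.0986 without HCC arrays 1 to 4 and of 0.138, 0.126, 0.141 and 0.117 without control arrays 1 to 4. A further quantile normalisation also ended the call, at 0.0543. The other 21 measured members of the whey acidic protein family did not pass. Among those, Wfdc15b was at 8.23 ± 1.85 in HCC and 6.29 ± 0.37 in control liver, and Wfdc21 at 10.34 ± 1.74 in HCC and 12.69 ± 0.15 in control liver. The median of the 22 was -0.081. At an unadjusted p below 0.05 in limma, 2 of the 22 were higher and 1 lower. These shares were 9.09% and 4.55%, against 10.5% and 9.85% of all genes.

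Of 17 measured genes of intraflagellar transport complex B, the particle that carries cargo toward the tip of cilia and flagella, Ift81 rose, none fell (0 at an unadjusted p below 0.05 as well, and 10 higher), and 15 had a higher mean in HCC. Over all genes 10.5% were higher at that unadjusted threshold and 42.5% had a higher mean. Ift81, which binds tubulin as cargo, measured 8.67, 8.41, 8.18, 8.34 and 7.60 on HCC arrays 1 to 5, against 6.60, 6.88, 6.82 and 6.53 on control arrays 1 to 4. Its log2 change was 1.53 (SE 0.19), or 2.89-fold, with an adjusted p of 0.0179 in limma, and the groups did not overlap. The adjusted p was 0.0541 without HCC array 4 and 0.0856, 0.0604, 0.0781 and 0.0563 without control arrays 1 to 4. Its partner Ift74 was at 7.96 ± 0.34 in HCC and 7.17 ± 0.29 in control liver, and Ift20 at 9.98 ± 0.29 in HCC and 10.20 ± 0.22 in control liver, neither past the threshold. The median of the list was 0.41. The list was taken for the link of Ccdc34 to flagella.

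Of 15 measured calmodulins and calmodulin-like genes, Calm3, 1 of the genes that encode calmodulin itself, rose and none fell. At an unadjusted p below 0.05 in limma, 2 were higher, or 13.3% against 10.5% of all genes, and 0 lower. Cetn4 had the largest log2 difference of the list, 1.47, at 9.55 ± 0.78 in HCC and 8.08 ± 0.28 in control liver (adjusted p = 0.0876). The groups of Cetn4 did not overlap. Calm3 measured 10.35, 10.18, 10.17, 10.34 and 10.23 on HCC arrays 1 to 5, against 9.62, 9.85, 9.74 and 9.79 on control arrays 1 to 4. The log2 change was 0.50 (SE 0.075), or 1.42-fold, with an adjusted p of 0.0314 in limma. It was lost without HCC arrays 3 and 4, at 0.0569 and 0.0752, and without control arrays 1 to 4, at 0.0983, 0.0767, 0.118 and 0.0679, and under a further quantile normalisation, at 0.0543. Calm2, which encodes the same protein, was at 13.11 ± 0.09 in HCC and 12.99 ± 0.04 in control liver. None of 15 other brush border genes passed in limma (1 higher and 1 lower at an unadjusted p below 0.05), including the Calml4 partners Ush1c, at 6.05 ± 0.08 in HCC and 6.17 ± 0.06 in control liver, and Myo7b, at 6.71 ± 0.21 in HCC and 6.45 ± 0.16 in control liver. Myo1d, a myosin of microvilli, had the smallest p of that list, at 7.69 ± 0.32 in HCC and 8.19 ± 0.15 in control liver (adjusted p = 0.145). The largest rise of the list was 1.52 for Vil1 (adjusted p = 0.251 in limma). Vil1 was at 7.32, 9.45, 7.87, 5.84 and 5.73 on HCC arrays 1 to 5, against 5.63 to 5.81 in control livers. Cdhr5 was at 10.37 ± 0.50 in HCC and 9.76 ± 0.15 in control liver (adjusted p = 0.192). A higher mean in HCC was seen for 9 of the 15 (60%, against 42.5% of all genes) and a lower one for 6.

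Of 21 measured galactosyltransferases and enzymes of glycosphingolipid synthesis other than B4galt6, none passed in limma (3 higher and 2 lower at an unadjusted p below 0.05). The other lactosylceramide synthase, B4galt5, had the smallest p: it was at 8.84 ± 0.28 in HCC and 8.04 ± 0.35 in control liver, a log2 difference of 0.80 (SE 0.19, adjusted p = 0.0781). Ugcg, which makes the glucosylceramide that both synthases use, was at 8.37 ± 0.34 in HCC and 8.61 ± 0.27 in control liver. St3gal5, which turns lactosylceramide into the ganglioside GM3, was at 8.76 ± 0.96 in HCC and 10.22 ± 0.44 in control liver (adjusted p = 0.135 in limma).

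None of 26 other adhesion receptors passed in limma (0 higher and 5 lower at an unadjusted p below 0.05, against 10.5% and 9.85% of all genes). Adgrf5, a receptor of lung epithelium and vascular endothelium that is the next measured gene to Adgrf1, had the smallest p, at 7.75 ± 0.31 in HCC and 8.33 ± 0.21 in control liver (log2 difference -0.58, adjusted p = 0.115). Adgrf2 and Adgrf4, of the same subfamily, were at 4.71 ± 0.14 and 4.06 ± 0.04 in HCC, against 4.74 ± 0.09 and 4.03 ± 0.09 in control liver. Both had a low signal, with identical values of Adgrf2 on several arrays. For list genes with so low a signal, an unchanged gene and an undetected one cannot be told apart. Neither relative of Tmem45a passed (0 at an unadjusted p below 0.05). Tmem45a2 was at 3.76 ± 0.01 in HCC and 3.76 ± 0.10 in control liver. Tmem45b was at 8.63 on HCC array 2, at 5.25 to 5.59 on the other tumours and at 5.68 to 5.90 in control livers. The eighth list, snoRNA host genes, had been drawn up for D17H6S56E-5, but the gene table lists that gene as protein coding. None of its 6 measured genes passed in limma (1 higher and 0 lower at an unadjusted p below 0.05), with Snhg5 at 10.13 ± 0.34 in HCC and 9.56 ± 0.20 in control liver.

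**Figure D4:**
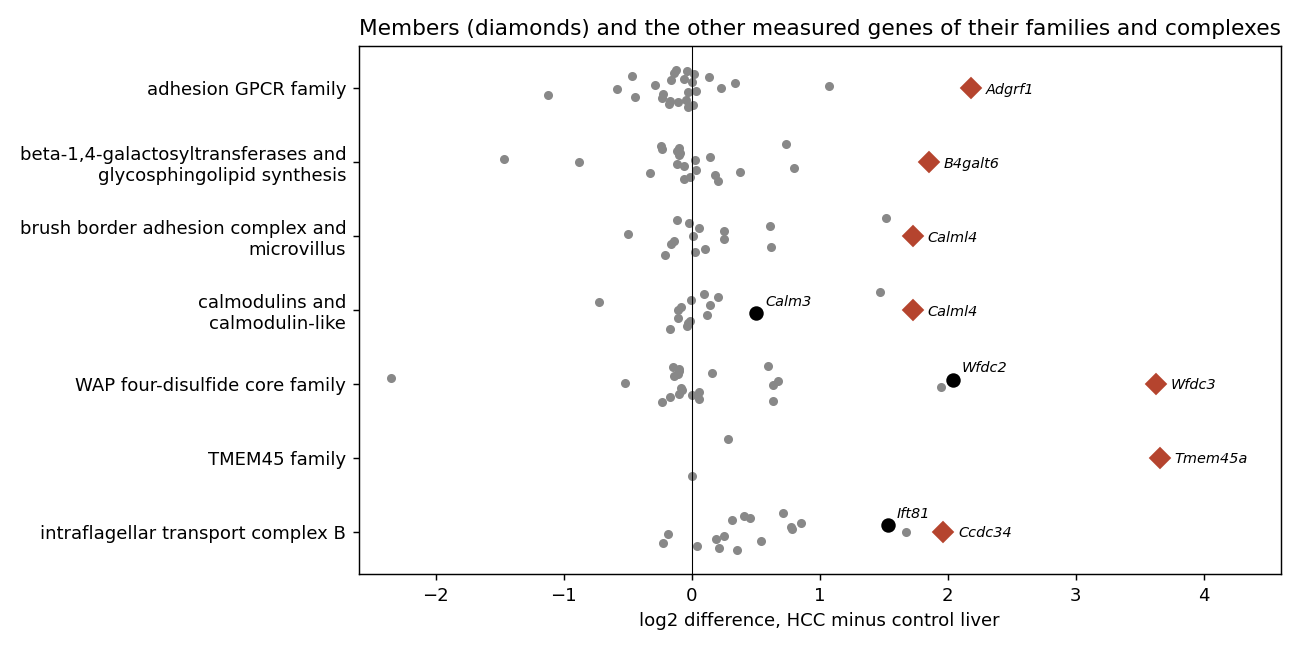
The x axis gives the log2 difference of HCC minus control liver for each member other than D17H6S56E-5 (diamonds) and for the other measured genes of its family or complex (dots), with genes past the adjusted p threshold as large black dots. Wfdc2 at 2.04, Ift81 at 1.53 and Calm3 at 0.50 are the genes past it, and most dots lie near 0.

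The chromosomal neighbours had smaller log2 differences than the members, which were chosen for theirs. Some neighbours, such as Tmem45a2 and Spint4, had a low signal with identical values on several arrays. For those, an unchanged gene and an undetected one cannot be told apart. Of the 42 measured genes within 3 places of a member, 3 on each side, 1 rose and none fell in limma (9, or 21.4%, were higher and 5, or 11.9%, lower at an unadjusted p below 0.05, against 10.5% and 9.85% of all genes), and their log2 differences lay between -1.01 and 0.76, with a median of -0.047. The gene that rose was Dsg2, a desmosomal cadherin near B4galt6 on chromosome 18, at 9.38 ± 0.07 in HCC and 8.92 ± 0.05 in control liver (log2 change 0.47, SE 0.064, adjusted p = 0.0228). Its call was lost without HCC arrays 3 and 4, at 0.0582 and 0.0559, and without control arrays 1 to 4, at 0.0879, 0.0767, 0.0954 and 0.0602, and under a further quantile normalisation, at 0.0504. The nearest measured genes to B4galt6 were Ttr and Trappc8, and all neighbours named below are nearest in this sense. Ttr, the thyroid hormone carrier of plasma, was at 13.34 ± 0.10 in HCC and 13.42 ± 0.03 in control liver, and Trappc8 at 8.53 ± 0.18 in HCC and 8.55 ± 0.07 in control liver.

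Tmem45a lies on chromosome 16 between Tmem45a2, given above, and Adgrg7, an adhesion receptor at 5.55 ± 0.11 in HCC and 5.55 ± 0.13 in control liver. Wfdc3 lies on chromosome 2 between Spint5, at 6.04 ± 0.20 in HCC and 6.22 ± 0.10 in control liver, and Dnttip1, at 8.73 ± 0.40 in HCC and 8.20 ± 0.12 in control liver. The neighbours of D17H6S56E-5 on chromosome 17 were Lsm2, a subunit of the U6 small nuclear RNA complex, at 7.83 ± 0.11 in HCC and 7.49 ± 0.12 in control liver, and Vars, a valyl-tRNA synthetase, at 7.83 ± 0.21 in HCC and 7.56 ± 0.05 in control liver. None of these passed the threshold.

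Adgrf1, also on chromosome 17, lies between Adgrf5, given above, and Tnfrsf21, a death receptor at 7.37 ± 0.48 in HCC and 7.51 ± 0.08 in control liver. Calml4 on chromosome 9 lies between Cln6, an endoplasmic reticulum protein at 8.26 ± 0.61 in HCC and 7.55 ± 0.23 in control liver, and Pias1, a SUMO ligase at 9.09 ± 0.07 in HCC and 8.92 ± 0.05 in control liver. Ccdc34 on chromosome 2 lies between Lgr4, an R-spondin receptor at 8.82 ± 0.31 in HCC and 8.91 ± 0.24 in control liver, and Bbox1, the last enzyme of carnitine synthesis, at 10.31 ± 0.78 in HCC and 10.98 ± 0.09 in control liver. None of these passed either.

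**Figure D5:**
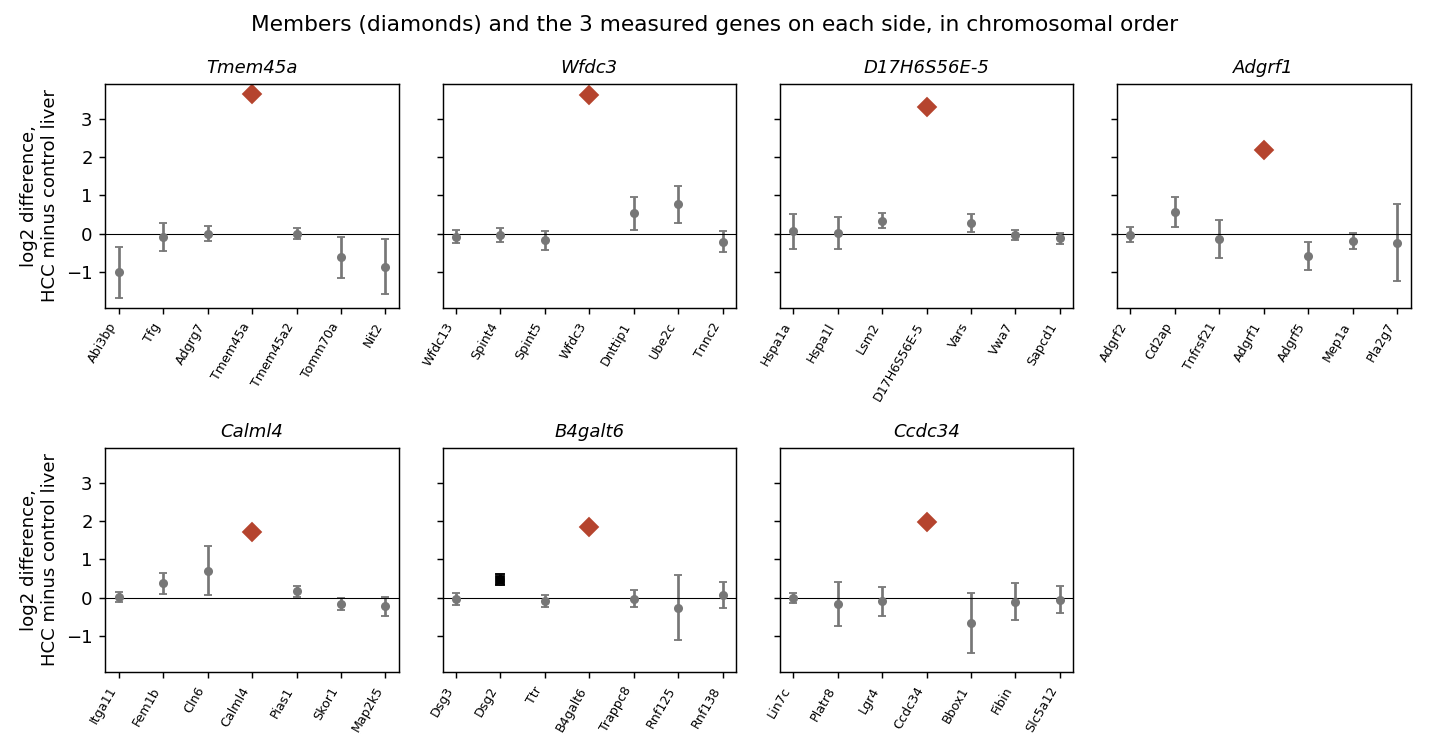
Each panel centres on 1 member (diamond) and shows the log2 difference of HCC minus control liver for the 3 measured genes on each side in chromosomal order, with 95% intervals from limma and the gene past the threshold as a black square. Neighbours lie between -1.01 and 0.76, and Dsg2 near B4galt6 is the gene past the threshold.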

How the data were processed

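The deposited table holds 35512 probe set intensities on a linear scale for 9 arrays, made by the authors with RMA, per the submitters' processing notes. GenePattern and R were also used, per the series' design text, with versions not stated there. No detection calls or scanner files were used, and the number of arrays limits precision. Array medians lay between 91.5 and 101 intensity units.

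Intensities were transformed to log2 with no pseudocount. Probe sets with 1 gene symbol in the platform annotation (21789; 1621 had several and 12102 none) were renamed through Entrez identifiers with a RefSeq table of GRCm38.p6, which also gave neighbours and promoter windows (21698 matched). The probe set with the highest mean stood for a gene, which left 19938 genes. Groups were compared with limma 3.58.1 in R 4.3.3 (lmFit, eBayes, group as the only term, two-sided, Benjamini-Hochberg adjustment). Because the labels tie no array to an animal, p-values reflect only how far the arrays scatter, which may be technical. Tables and plots used Python 3.11.15, pandas 2.3.3, numpy 2.4.6 and matplotlib 3.10.9. The fit was tested on simulated data for this comparison with 19938 genes: it recovered 83% of 100 genes changed by a log2 of 1 and 96% of 100 changed by 2, with 9 false calls. The simulated noise was normal and independent between genes, and the changed genes were picked at random. In the data, the SD was larger in HCC for 91.3% of genes with a mean log2 difference of at least 1, against 67.9% of all genes. The simulation therefore did not measure recovery among such strongly raised genes.

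The members and the lists were chosen with earlier results of these data known. Named genes were the members, up to 4 genes past the threshold per related list or else the one with the smallest p, the adjacent neighbours and any neighbour past the threshold, and the 3 nearest profiles per member, passing over clone-like symbols. Other list genes were named as examples after their values were seen. Same-numbered arrays of the groups did not deviate together in every pair, so the numbers were not taken to pair them. The alternatives were a filter on dim genes, quantile normalisation over again, centring each array on its median, a robust eBayes with a variance trend, averaging a gene's probe sets, a replicate block, the Xist level as a covariate, the arrays of high or low Xist alone, and leaving out each array.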

Additional observations from a re-analysis of the deposited data

Results flagged for a closer look

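In 60 groups of 4 or 5 arrays, 6 held a value far from the others by Dixon's criterion. Chance alone gives this in about 1 of 20 groups where values are normally distributed and untied. Tmem45b was 8.63 on HCC array 2, against 5.25 to 5.59 on the other tumours. Cln6 was 9.31 on HCC array 3, against 7.85 to 8.17. Adgrg7 was 5.74 on HCC array 4, against 5.50 to 5.53 on the other tumours, several of which had identical values. Control array 1 was also at 5.74 for Adgrg7. The second Wfdc3 probe set was 6.57 on HCC array 1, against 6.74 to 6.81. Among the control livers, control array 4 was set apart for Spint5, at 6.37 against 6.14 to 6.18, and for Lsm2, at 7.67 against 7.41 to 7.46. No main probe set of a member was set apart in this way.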

How the results depend on the processing

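The log2 differences of Tmem45a, D17H6S56E-5, Calml4 and B4galt6 moved by less than 1 SD of the tumours under all 16 alternatives run on them, and no member changed direction under any. The exceptions were Wfdc3 at 1.79 as the mean of its probe sets, which averages in the probe set without a difference, Adgrf1 at 0.59 within the arrays of low Xist, and Ccdc34 at 2.60 within those of high Xist; the cause of the last pair was not tested. Several of these alternatives could not have moved a member far. Leaving out 1 tumour cannot shift the tumour mean by 1 SD. Averaging probe sets can change only Wfdc3 among the members, and the replicate block repeats the estimate without HCC array 5. The members were chosen for their rise on these arrays, so an unchanged direction is no added support. The log2 difference of Calml4 still ran from 1.28 to 2.61. Counts of calls in limma moved far more. The filter on dim genes gave 285 higher, 93 lower and 6 in the related lists. Quantile normalisation again gave 49 lower and 0 among the neighbours (12 at an unadjusted p below 0.05). It ended the calls of Wfdc2, Calm3 and Dsg2, at an adjusted p of 0.0543, 0.0543 and 0.0504, and Ift81 passed at 0.0301. The replicate block, in which HCC array 5 has no partner and adds nothing, gave 259 higher, 220 lower and 4 among the neighbours. The correlations of same-numbered deviations were -0.0040, 0.32, -0.029 and -0.083. Under that block Wfdc2, Calm3 and Dsg2 had adjusted p of 0.0564, 0.0696 and 0.0670, and Ift81 passed at 0.0224. Leaving out 1 array at a time gave 10 to 631 higher, 0 to 556 lower, 0 to 8 in the related lists and 0 to 4 among the neighbours (8 to 14 neighbours at an unadjusted p below 0.05 where none passed). The 0 lower calls came without control array 1, 2 or 3, with 1530, 1615 and 1484 at an unadjusted p below 0.05, and the 631 and 556 without HCC array 5. Over 16 alternatives the adjusted p ran from 0.0166 to 0.141 for Wfdc2, from 0.00105 to 0.0856 for Ift81, from 0.0164 to 0.118 for Calm3 and from 0.0128 to 0.0954 for Dsg2.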
